A study of Homo sapiens with 9 samples.

Results

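Cadherins are the surface proteins with which a cell holds on to its neighbours. CDH11 and 9 further genes of this superfamily are described here in MDA-MB-231 cells that carry different potassium channel constructs: CDH2, CDH3, CDH4, CDH18, CDH24, PCDH1, PCDH7, FAT1 and FAT4. The 10 genes were taken by symbol from the 60715 genes of the count table, with their levels in every library and in all 3 group comparisons already known: they were chosen by their CPM in each library and their fold changes in those comparisons. Their own differences are therefore given as a description, without a test. All 10 were among the 16687 genes left by a filter on low counts, and some (CDH18 in particular) passed it through the groups in which they were high.

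MDA-MB-231 is an established human line from a triple negative breast cancer. Each culture had been infected with lentivirus and sorted by fluorescence, controls included. The Kir2.1 cells (n = 3) carried KCNJ2, an inwardly rectifying potassium channel, with the substitution Y242F and joined to EGFP. The cells labelled Kv1.5 (n = 2, replicates 2 and 3) are those the labels describe as carrying a voltage-gated potassium channel, encoded by KCNA5, with EGFP placed after a T2A peptide. The RFP cells (n = 3) carried a red fluorescent protein and no channel. The channel and the colour of the fluorescent protein cannot be told apart in this design. The submitters call the cultures of a line separate biological replicates. No source used here tells whether they came from separate infections. The spread and the p-values may therefore be those of cultures of 1 infected population.

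Classical cadherins bind like molecules on the next cell through repeated extracellular domains that need calcium, and tie to actin inside the cell through beta-catenin and alpha-catenin. Carcinoma cells that lose E-cadherin (CDH1) often carry other classical cadherins in its place, among them N-cadherin (CDH2) and cadherin-11 (CDH11), which was first known from osteoblasts and fibroblasts. Protocadherins and the very large FAT proteins share the repeats but lack the classical catenin-binding tail.

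Library totals ran from 30970235 to 42753422 counts. KCNJ2 stood at 843, 1384 and 1189 CPM (counts divided by the scaled library total and multiplied to a common size) in the Kir2.1 libraries, at 0.0257 and 0.105 CPM in those labelled Kv1.5, and at 0.0239, 0 and 0.0863 CPM in the RFP libraries. KCNA5 had a single read over all 8 libraries (1 count, in Kir2.1 replicate 1), and 0 counts in each library labelled Kv1.5. KCNA5 thus goes against the Kv1.5 label. No source used here says whether reads of this construct would be counted at the reference gene, which limits what these 0 counts show, and every direction below that rests on these libraries is that of the libraries labelled Kv1.5. All 7 MDA-MB-231 markers, such as VIM, had counts in every library, with summed levels of 7388 to 8777 CPM in Kir2.1, 4727 to 5938 CPM in libraries labelled Kv1.5 and 5901 to 7682 CPM in RFP. These sums hide differences in single markers. TGFBI averaged 116 CPM in Kir2.1, 26.05 CPM in libraries labelled Kv1.5 and 240 CPM in RFP. In the same order CAV1 averaged 531, 167 and 521 CPM, and MSN 1191, 1099 and 577 CPM. CDH1 (E-cadherin, which this line is known to lack) had 1 to 5 counts per library in Kir2.1, 3 and 5 counts in libraries labelled Kv1.5, and 2 to 7 counts in RFP, and did not pass the filter. In bulk RNA, a smaller number of cells that carry a transcript and less transcript per cell cannot be told apart.

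CDH11 (ENSG00000140937.14, GRCh38 chr16:64943753-65126112, minus strand) was nearly absent from the RFP libraries and abundant in all 5 others. It had 3576, 6571 and 5242 counts in the Kir2.1 libraries, 6022 and 5601 counts in those labelled Kv1.5, and 1, 3 and 0 counts in the RFP libraries. These counts are 116, 178 and 146 CPM in Kir2.1, 155 and 148 CPM in libraries labelled Kv1.5, and 0.0239, 0.0788 and 0 CPM in RFP. No RFP library came near any of the others, and the Kir2.1 libraries and those labelled Kv1.5 overlapped each other. Means were 146.5 ± 31.0 CPM in Kir2.1 (SD, n = 3), 151 ± 5.02 CPM in libraries labelled Kv1.5 (n = 2) and 0.0342 ± 0.0404 CPM in RFP (n = 3). The fitted log2 fold change was 11.90 (SE 0.42) for Kir2.1 against RFP and 11.95 (SE 0.43) for the libraries labelled Kv1.5 against RFP, while it was 0.04 (SE 0.25) for the libraries labelled Kv1.5 against Kir2.1. Since the RFP side rests on 4 counts in all, the size of these folds is loose: the ratio of summed counts to library size was 4253 for Kir2.1 against RFP, with an exact 95% interval of 1661 to 15610. For the libraries labelled Kv1.5 against RFP it was 4333, with an interval of 1692 to 15910. Without RFP replicate 2, which holds 3 of the 4 counts, the ratios were 11360 for Kir2.1 and 11580 for the libraries labelled Kv1.5. All intervals and floors here cover counting error only.

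Cadherin-11 is also a mesenchymal and bone cell marker, so markers of those cells were set beside it. The 11 fibroblast markers summed to 26.5 to 51.2 CPM in Kir2.1, 10.9 to 16.0 CPM in libraries labelled Kv1.5 and 192 to 204.5 CPM in RFP. COL1A1, a chain of type I collagen, made up most of that in RFP at 184 to 195.5 CPM, against 7.23 to 8.08 CPM in Kir2.1 and 2.63 to 6.91 CPM in libraries labelled Kv1.5. Without COL1A1 the other 10 markers summed to 18.6 to 44.0 CPM in Kir2.1, 8.27 to 9.11 CPM in libraries labelled Kv1.5 and 6.59 to 9.06 CPM in RFP, so that Kir2.1 lay above RFP, as CDH11 does, and the libraries labelled Kv1.5 overlapped RFP. COL6A3, a chain of type VI collagen, made up most of this, at 25.9 ± 11.5 CPM in Kir2.1, 6.46 ± 0.42 CPM in libraries labelled Kv1.5 and 4.52 ± 0.18 CPM in RFP. LUM, the matrix protein lumican, averaged 0.607 CPM in Kir2.1, 1.45 CPM in libraries labelled Kv1.5 and 0.187 CPM in RFP, the direction of CDH11 as well. DCN and POSTN, both typical of fibroblasts, were at or near 0 in every group. Of the 6 osteoblast markers, SP7 had 0 counts in all 8 libraries, and the list summed to 35.3 to 49.6 CPM in Kir2.1, 25.3 to 39.6 CPM in libraries labelled Kv1.5 and 35.7 to 48.9 CPM in RFP, nearly all of it RUNX2. SPP1, another of the list, went against CDH11 without overlap. It had 0.129, 0.730 and 0.251 CPM in Kir2.1, 0.0513 and 0.132 CPM in libraries labelled Kv1.5, and 2.36, 1.58 and 1.41 CPM in RFP. The 5 endothelial markers summed to 18.7 to 25.1 CPM in Kir2.1, 27.4 to 29.3 CPM in libraries labelled Kv1.5 and 4.46 to 22.6 CPM in RFP. Among them KDR, a VEGF receptor, went with CDH11 without overlap, at 11.1 to 14.8 CPM in Kir2.1, 22.9 and 25.4 CPM in libraries labelled Kv1.5 and 2.16 to 2.71 CPM in RFP. The upper end in RFP was PECAM1 in RFP replicate 3, at 20.1 CPM. VWF, also on the endothelial list, was scarce but went against CDH11 without overlap. Its level was 0 to 0.112 CPM in Kir2.1 and 0.230 to 0.334 CPM in RFP. Neither library labelled Kv1.5 held any read of VWF. The 8 luminal markers summed to 252 to 367 CPM in Kir2.1, 239 to 247.5 CPM in libraries labelled Kv1.5 and 359 to 639 CPM in RFP, with ESR1 at or near 0 throughout. The part of these differences in the CDH11 levels was not tested.

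CDH11 lies on chromosome 16 with several other cadherin genes. CDH3, described below, is one of them, with up to 78 counts in a library. CDH8, CDH5, CDH16, CDH1, CDH13 and CDH15 had at most 12 counts in any library. Tested neighbours of CDH11 are far away, the nearest being the pseudogene RPS27AP16 on one side, with a gap of 3890 kb, and LINC00920 on the other, with a gap of 1280 kb. Of the 3 tested genes nearest on each side (SLC38A7, GOT2, RPS27AP16, LINC00920, BEAN1 and TK2) only TK2, the mitochondrial thymidine kinase with a gap of 1380 kb, passed an adjusted p of 0.05. TK2 averaged 34.5 ± 1.32 CPM in the Kir2.1 libraries, against 14.8 ± 3.01 CPM in RFP, and its log2 fold change was 1.22 (SE 0.22, edgeR adjusted p = 0.00206). It averaged 31.4 ± 8.66 CPM in libraries labelled Kv1.5, a rise of 1.08 over RFP (SE 0.24, edgeR adjusted p = 0.00455). BEAN1 passed as well for Kir2.1 against RFP once RFP replicate 3 was left out, at a log2 fold change of 2.96 in place of 1.42. RPS27AP16 passed for that comparison with no filter on low counts, at a log2 fold change of -1.15. Within 2 Mb of CDH11, 18 genes were tested, of which 3 rose and 1 fell for Kir2.1 against RFP and 2 rose and 3 fell for the libraries labelled Kv1.5 against RFP. Over all tested genes, 20.5% passed in the first of these comparisons and 33.7% in the second. All 18 lie on the side of LINC00920. CES4A, a carboxylesterase family member with a gap of 1862 kb, was singled out after its values were seen because it shows a step like that of CDH11. It had 50, 97 and 64 counts in Kir2.1, 57 and 49 counts in libraries labelled Kv1.5, and 2, 1 and 2 counts in RFP. Its log2 fold change was 5.42 for Kir2.1 against RFP (SE 0.48, edgeR adjusted p = 1.22e-05) and 4.88 for the libraries labelled Kv1.5 against RFP (SE 0.51, edgeR adjusted p = 3.31e-05).

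**Figure D1:**
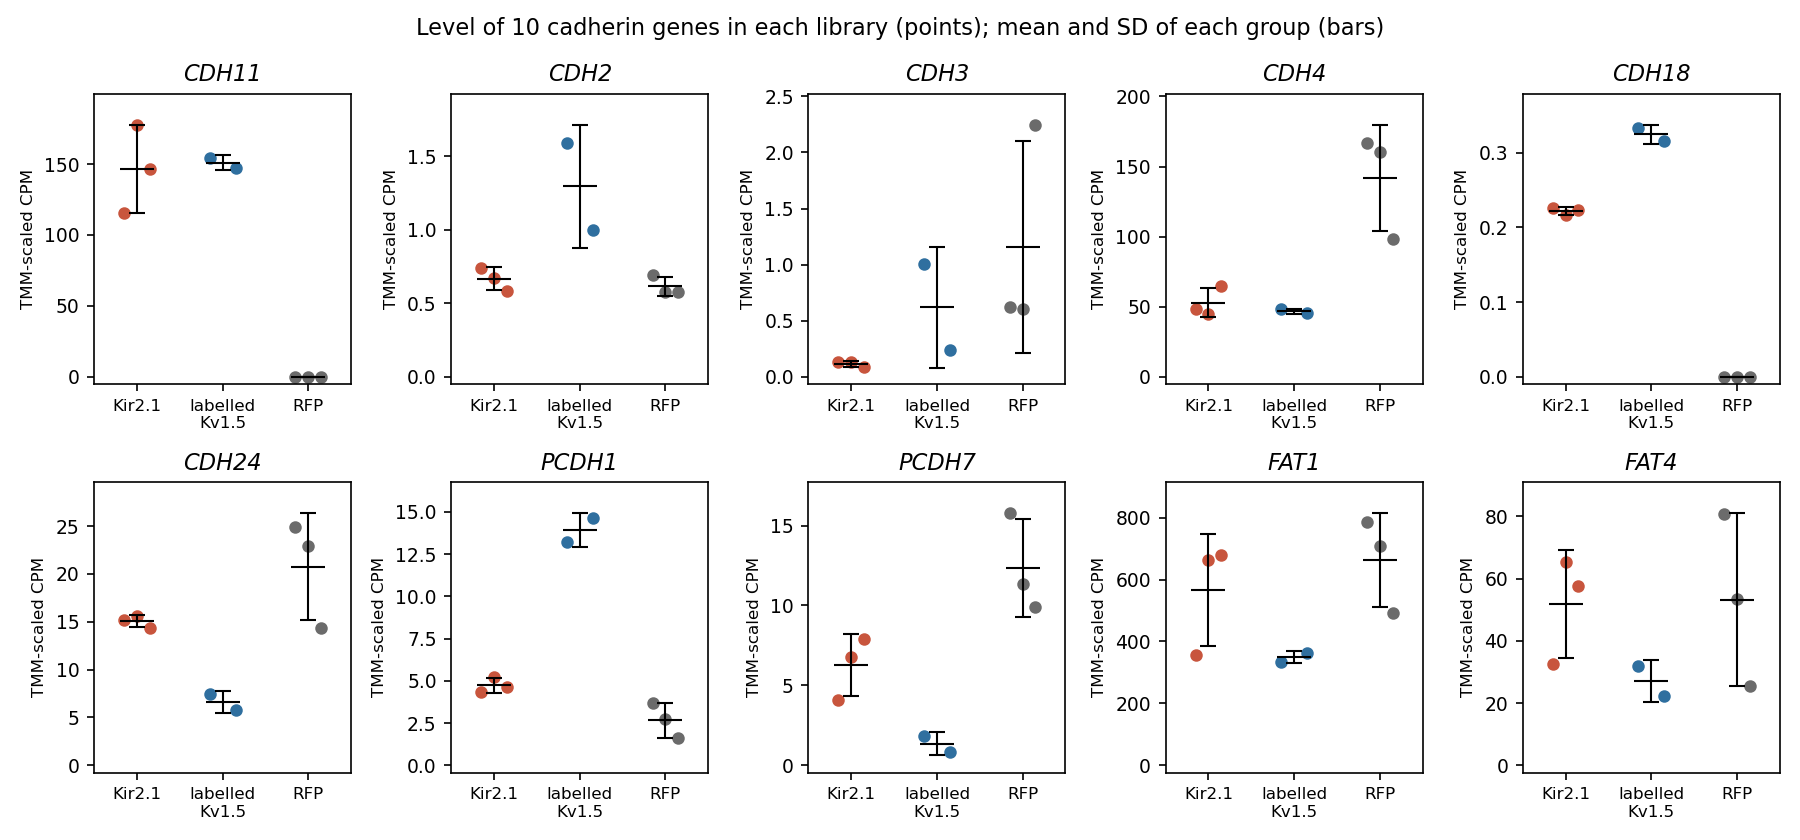
Level of each of the 10 cadherin genes in every library, in scaled CPM on a linear axis of its own for each gene, for Kir2.1, the libraries labelled Kv1.5 and RFP. Points are libraries, and bars give the mean and SD of each group. CDH11 and CDH18 stand apart between RFP and the other groups, CDH4 is highest in RFP, and PCDH1 and PCDH7 separate all 3 groups.

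CDH4, which encodes R-cadherin, was the leading classical cadherin of the RFP cells and was lower in both other groups. It had 48.5, 45.0 and 64.6 CPM in the Kir2.1 libraries, 48.0 and 45.2 CPM in those labelled Kv1.5, and 167, 160.3 and 98.6 CPM in the RFP libraries. Every RFP library was above every other library, and RFP replicate 3 was the lowest of its group. Means were 52.7 ± 10.4 CPM in Kir2.1, 46.6 ± 1.97 CPM in libraries labelled Kv1.5 and 142 ± 37.7 CPM in RFP (SD). The fitted log2 fold change was -1.43 (SE 0.23) for Kir2.1 against RFP and -1.61 (SE 0.26) for the libraries labelled Kv1.5 against RFP. It was -0.18 (SE 0.25) for the libraries labelled Kv1.5 against Kir2.1, with overlapping levels. CDH4 (ENSG00000179242.16) spans chr20:61252426-61940617 on the plus strand.

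CDH2, N-cadherin, the classical cadherin most often linked with mesenchymal carcinoma cells, was low throughout. It had 0.744, 0.676 and 0.586 CPM in Kir2.1, 1.59 and 1.00 CPM in libraries labelled Kv1.5, and 0.692, 0.578 and 0.576 CPM in RFP. Both libraries labelled Kv1.5 lay above all the others, while Kir2.1 and RFP overlapped. The log2 fold change was 0.11 (SE 0.36) for Kir2.1 against RFP, 1.07 (SE 0.38) for the libraries labelled Kv1.5 against RFP and 0.95 (SE 0.38) for those against Kir2.1. The gene had 20 to 62 counts per library, and an antisense transcript that overlaps 136 bp of its exons had 1 to 28 counts. No source used here gives the strand setting of the counting, and reads of these 2 genes may be mixed.

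CDH3, P-cadherin, a cadherin of basal epithelial cells, was near the limit of counting. It had 4, 5 and 3 counts in Kir2.1, 39 and 9 counts in libraries labelled Kv1.5, and 26, 23 and 78 counts in RFP. Kir2.1 was below both other groups without overlap. The libraries labelled Kv1.5 overlapped RFP, with replicate 2 at 1.00 CPM inside the RFP range of 0.604 to 2.25 CPM. Their replicate 3, at 0.237 CPM, lay below every RFP library. The log2 fold change was -3.27 (SE 0.73) for Kir2.1 against RFP and 2.39 (SE 0.80) for the libraries labelled Kv1.5 against Kir2.1. RFP replicate 3 carried much of the first, and without it the log2 fold change was -2.37. The second stood at 1.01 without replicate 2 of the libraries labelled Kv1.5 and at 3.07 without their replicate 3. For the libraries labelled Kv1.5 against RFP it was -0.89 (SE 0.68), and -2.25 to 0.01 over the alternatives tried. The gene shares 694 bp of exon with CDH3-AS1, which had at most 5 counts in a library.

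CDH24 and CDH18 are, like CDH11, type II classical cadherins. CDH24 had 15.2, 15.6 and 14.4 CPM in Kir2.1, 7.39 and 5.77 CPM in libraries labelled Kv1.5, and 24.9, 22.9 and 14.4 CPM in RFP. The libraries labelled Kv1.5 were below all others, and Kir2.1 overlapped RFP because of RFP replicate 3. The log2 fold change of CDH24 was -0.46 (SE 0.23) for Kir2.1 against RFP, -1.66 (SE 0.28) for the libraries labelled Kv1.5 against RFP and -1.19 (SE 0.27) for those against Kir2.1.

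CDH18, a cadherin known mainly from neural tissue, had 7, 8 and 8 counts in Kir2.1, 13 and 12 counts in libraries labelled Kv1.5, and 0 counts in each RFP library. It is scarce in all groups, and any count at all set Kir2.1 and the libraries labelled Kv1.5 apart from RFP. Against a floor of 3 counts over the RFP group, CDH18 was at least 8.48-fold higher in Kir2.1 and at least 12.4-fold higher in the libraries labelled Kv1.5. With RFP replicate 1 left out these bounds were 5.38-fold and 7.89-fold. The ratio of the libraries labelled Kv1.5 to Kir2.1 was 1.47, with an exact 95% interval of 0.799 to 2.70. CDH10, another neural type II cadherin and not one of the 10, showed the reverse and was singled out after its values were seen. It had 0 counts in every Kir2.1 library and in both labelled Kv1.5, and 22, 9 and 9 counts in RFP, which makes it at least 12.1-fold lower in Kir2.1 and at least 8.94-fold lower in the libraries labelled Kv1.5. The second bound was 4.41-fold without replicate 2 and 4.53-fold without replicate 3 of the libraries labelled Kv1.5, and the first was 7.76-fold to 14.0-fold with a single library left out.

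Per kilobase of exon, the summed level of the 18 classical cadherins (5 of type I and 13 of type II) differed less between groups than its makeup. It was 22.4 ± 2.44 CPM per kb in Kir2.1, 19.9 ± 1.12 CPM per kb in the libraries labelled Kv1.5 and 25.3 ± 6.49 CPM per kb in RFP. Kir2.1 libraries stood at 19.6, 23.8 and 23.8 CPM per kb, the libraries labelled Kv1.5 at 20.7 and 19.1, and RFP at 29.8, 28.3 and 17.9, so the groups overlapped. CDH11 made up 48.6% ± 6.25 of this sum in Kir2.1 and 56.8% ± 1.31 in the libraries labelled Kv1.5, against 0.00894% ± 0.0107 in RFP. CDH4 made up 32.1% ± 5.77 in Kir2.1, 31.9% ± 0.45 in the libraries labelled Kv1.5 and 76.2% ± 0.99 in RFP. The CDH24 share was 18.1% ± 2.39 in Kir2.1, 8.80% ± 1.05 in the libraries labelled Kv1.5 and 21.8% ± 0.43 in RFP. All other classical cadherins together made up 1.17% in Kir2.1, 2.46% in the libraries labelled Kv1.5 and 1.97% in RFP. RFP replicate 3 had lower CDH4 and CDH24 levels than the other RFP libraries, but its shares of 75.2% CDH4 and 21.5% CDH24 were like theirs. These shares are of transcript level, not of protein.

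**Figure D2:**
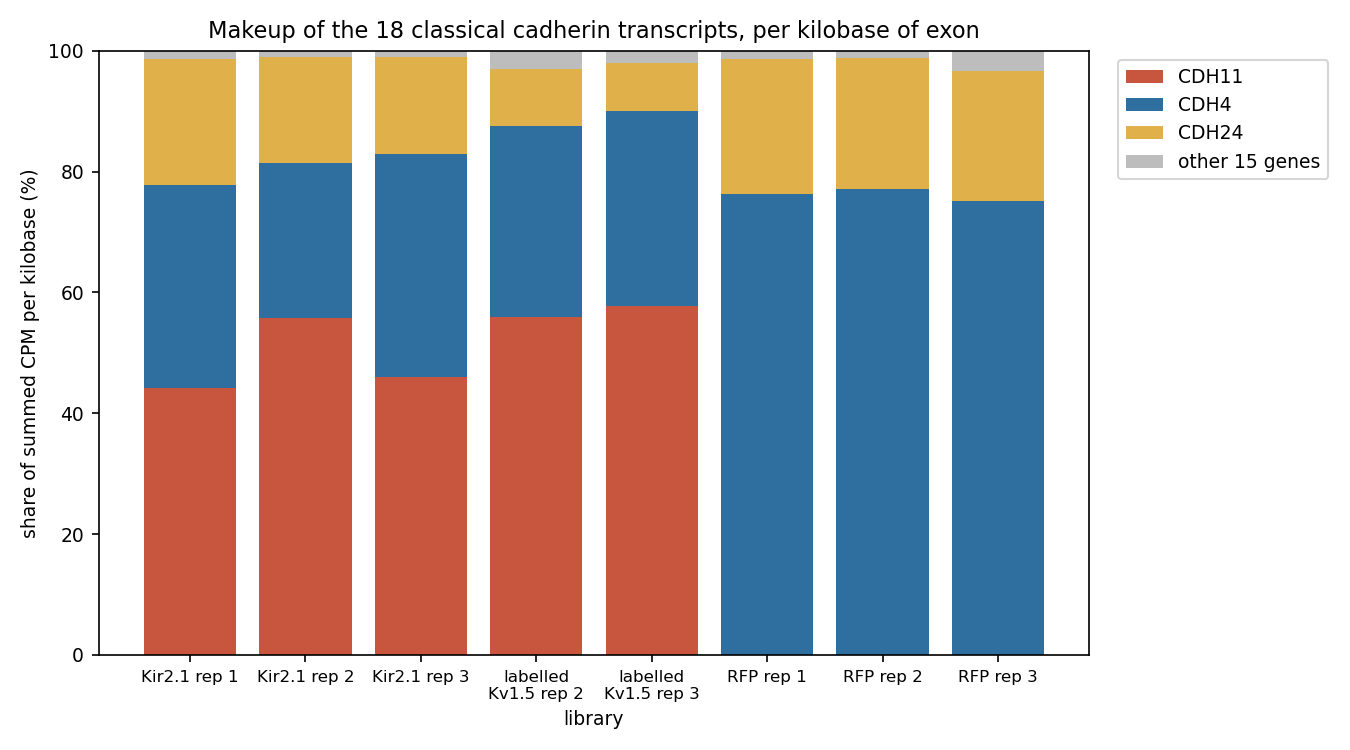
Makeup of the classical cadherin transcripts in each library, as the share in percent of the summed level per kilobase that CDH11, CDH4, CDH24 and all other classical cadherins take. CDH11 takes 44.1 to 55.7% in Kir2.1 and 55.9 to 57.8% in the libraries labelled Kv1.5, while CDH4 takes 75.2 to 77.1% in RFP.

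PCDH1 and PCDH7 are nonclustered protocadherins of the delta-1 group, and they separated the 3 groups in opposite directions. PCDH1 (ENSG00000156453.13, chr5:141853111-141879246, minus strand), known from airway epithelium, had 4.36, 5.24 and 4.60 CPM in Kir2.1, 13.2 and 14.6 CPM in libraries labelled Kv1.5, and 3.68, 2.73 and 1.61 CPM in RFP. Both libraries labelled Kv1.5 were far above the rest, and Kir2.1 lay just above RFP without overlap. Its log2 fold change was 0.82 (SE 0.29) for Kir2.1 against RFP, 2.38 (SE 0.32) for the libraries labelled Kv1.5 against RFP and 1.55 (SE 0.31) for those against Kir2.1.

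PCDH7 (ENSG00000169851.15, chr4:30720415-31146805, plus strand), a protocadherin studied in brain metastasis of breast cancer, had 4.11, 6.76 and 7.90 CPM in Kir2.1, 1.85 and 0.843 CPM in libraries labelled Kv1.5, and 15.8, 11.3 and 9.90 CPM in RFP. The groups did not overlap, with RFP highest and the libraries labelled Kv1.5 lowest. Its log2 fold change was -0.98 (SE 0.33) for Kir2.1 against RFP, -3.19 (SE 0.43) for the libraries labelled Kv1.5 against RFP and -2.21 (SE 0.41) for those against Kir2.1. The fold against RFP is larger when replicate 2 of the libraries labelled Kv1.5 is left out, at -3.86, and so is the fold against Kir2.1, at -2.89.

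Promoter windows of PCDH1, PCDH7 and CDH4, from the RefSeq table (GRCh38.p14), are shown. They let the reader compare the letters around annotated starts of a gene that was higher (PCDH1) and of genes that were lower (PCDH7 and CDH4) in the libraries labelled Kv1.5. The PCDH1 window and both CDH4 windows lie inside the gene spans given above, and only the PCDH7 window reaches the 5′ end of its span. First and second start give the order of the CDH4 windows here, not the first start of the gene. Each runs 5′ to 3′ on the gene's strand, from 250 bases before to 50 after an annotated start. Capitals mark CACCTG or its reverse complement CAGGTG, the E-box form that SNAI and ZEB repressors are known to bind in CDH1. Which start these cells use was not measured.
PCDH1 (chr5:141869578-141869877, minus strand): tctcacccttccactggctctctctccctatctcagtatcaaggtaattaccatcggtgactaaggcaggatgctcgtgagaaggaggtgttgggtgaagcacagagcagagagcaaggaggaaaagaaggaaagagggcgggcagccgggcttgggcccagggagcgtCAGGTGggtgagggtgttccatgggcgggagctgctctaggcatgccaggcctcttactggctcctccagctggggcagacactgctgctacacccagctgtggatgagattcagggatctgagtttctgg
PCDH7 (chr4:30720119-30720418, plus strand): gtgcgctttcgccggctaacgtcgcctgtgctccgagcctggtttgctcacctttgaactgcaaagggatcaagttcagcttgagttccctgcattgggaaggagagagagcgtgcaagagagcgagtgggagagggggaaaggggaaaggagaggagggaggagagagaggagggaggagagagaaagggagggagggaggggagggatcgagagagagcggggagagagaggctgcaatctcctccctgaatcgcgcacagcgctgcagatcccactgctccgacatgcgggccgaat
CDH4, first start (chr20:61499171-61499470, plus strand): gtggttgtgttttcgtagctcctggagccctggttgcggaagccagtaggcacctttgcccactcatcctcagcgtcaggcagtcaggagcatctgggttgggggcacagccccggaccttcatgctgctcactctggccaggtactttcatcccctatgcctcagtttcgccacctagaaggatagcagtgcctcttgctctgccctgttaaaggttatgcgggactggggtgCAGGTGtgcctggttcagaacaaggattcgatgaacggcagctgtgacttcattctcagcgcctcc
CDH4, second start (chr20:61599511-61599810, plus strand): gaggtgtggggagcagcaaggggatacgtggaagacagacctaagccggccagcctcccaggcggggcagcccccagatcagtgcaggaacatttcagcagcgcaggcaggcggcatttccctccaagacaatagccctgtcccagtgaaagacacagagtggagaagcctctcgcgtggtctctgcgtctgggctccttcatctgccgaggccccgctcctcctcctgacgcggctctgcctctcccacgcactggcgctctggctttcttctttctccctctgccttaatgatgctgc
The E-box letters occur in 1 place in the PCDH1 window and in 1 place in the first CDH4 window, and not in the other 2. They are common, since 20.6% of 35116 promoter windows of this length hold them. The table covers 6 of the 10 genes with 11 windows, and the windows of CDH2, CDH18 and FAT1 hold no match. The windows also differ in CpG content, with 6 CpG dinucleotides in PCDH1, 16 in PCDH7 and 9 and 14 in CDH4, beside a median of 14 over all windows. A match describes the letters only.

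FAT1 and FAT4 are giant cadherins with roles in cell polarity and growth control, and FAT4 is the receptor of the Dachsous cadherin DCHS1. FAT1, by far the most abundant of the 10, had 357, 662 and 678 CPM in Kir2.1, 335 and 363 CPM in libraries labelled Kv1.5, and 786, 708 and 493.5 CPM in RFP. The libraries labelled Kv1.5 lay below all RFP libraries but overlapped Kir2.1 through its replicate 1. The log2 fold change was -0.92 (SE 0.30) for the libraries labelled Kv1.5 against RFP, -0.23 (SE 0.26) for Kir2.1 against RFP and -0.70 (SE 0.29) for the libraries labelled Kv1.5 against Kir2.1.

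FAT4 had 32.5, 65.5 and 57.6 CPM in Kir2.1, 31.9 and 22.3 CPM in libraries labelled Kv1.5, and 80.9, 53.4 and 25.4 CPM in RFP. RFP alone spanned most of that range, and only the libraries labelled Kv1.5 against Kir2.1 did not overlap, by a narrow margin. The log2 fold change was -0.04 (SE 0.38) for Kir2.1 against RFP, -0.98 (SE 0.44) for the libraries labelled Kv1.5 against RFP and -0.94 (SE 0.44) for those against Kir2.1. Kir2.1 replicate 1 was the lowest of its group for both FAT genes and for CDH11 and PCDH7.

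**Figure D3:**
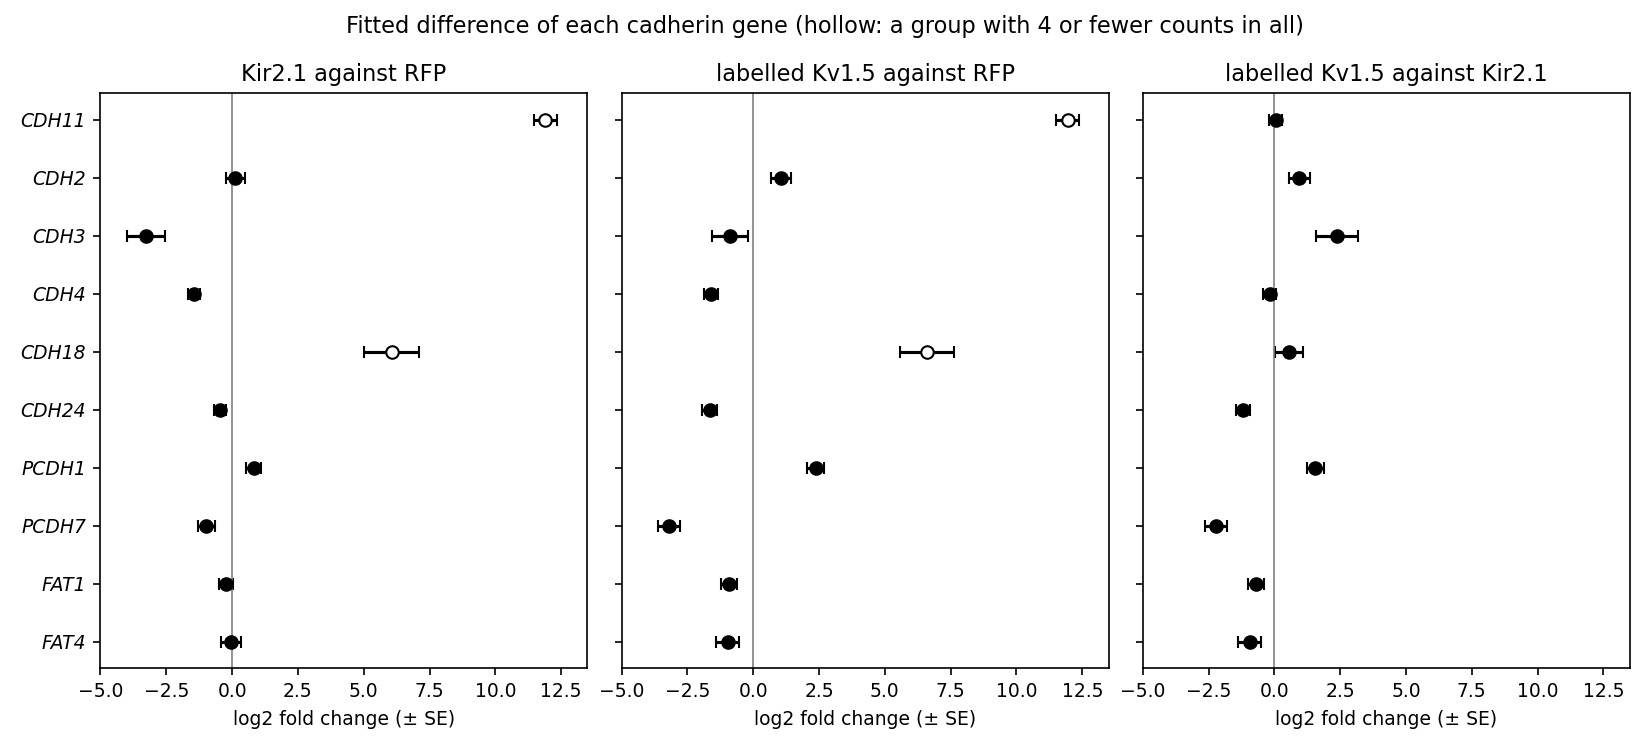
Fitted log2 fold change of each of the 10 genes, with its standard error as bars and hollow points where a group had 4 or fewer counts in all, for Kir2.1 against RFP, the libraries labelled Kv1.5 against RFP and the libraries labelled Kv1.5 against Kir2.1. CDH11 stands near 12 in both comparisons with RFP and near 0 for the libraries labelled Kv1.5 against Kir2.1, where PCDH1 and PCDH7 stand at 1.55 and -2.21.

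Per kilobase of exon, FAT1 led in every group, with 35.0 CPM per kb in Kir2.1, 21.6 in the libraries labelled Kv1.5 and 40.9 in RFP. CDH11 came next outside RFP, with 10.9 CPM per kb in Kir2.1 and 11.3 in the libraries labelled Kv1.5, while in RFP it was next to last at 0.00256. In Kir2.1 its libraries overlapped those of CDH4, which had 7.17 CPM per kb. In the libraries labelled Kv1.5, CDH11 stood above CDH4, at 6.34 CPM per kb, without overlap. CDH4 was second in RFP with 19.3 CPM per kb. CDH24 and FAT4 overlapped as neighbours in the order of each group, at 4.02 and 3.15 CPM per kb in Kir2.1, 1.76 and 1.65 in the libraries labelled Kv1.5 and 5.53 and 3.24 in RFP. PCDH1 was above PCDH7 in Kir2.1, at 0.803 against 0.511 CPM per kb, and far above it in the libraries labelled Kv1.5, at 2.36 against 0.110. In RFP the order was the other way, with 0.453 CPM per kb for PCDH1 and 1.01 for PCDH7. CDH2, CDH3 and CDH18 were at or below 0.262 CPM per kb in every group.

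At an adjusted p of 0.05, 4 of the 10 genes were past the threshold for Kir2.1 against RFP (CDH11 and CDH18 higher, CDH3 and CDH4 lower), where 20.5% of all tested genes were, 12.2% higher and 8.26% lower. In the second comparison, the libraries labelled Kv1.5 against RFP, 8 of 10 were (CDH11, CDH2, CDH18 and PCDH1 higher, CDH4, CDH24, PCDH7 and FAT1 lower), where 33.7% of all tested genes were, 18.1% higher and 15.6% lower. In the third, the libraries labelled Kv1.5 against Kir2.1, 3 of 10 were (PCDH1 higher, CDH24 and PCDH7 lower), where 16.8% of all tested genes were, 8.79% higher and 7.99% lower. Nothing is read from these counts, since the genes were listed with these comparisons known. The call of CDH2 for the libraries labelled Kv1.5 against RFP was lost under 10 of 12 alternatives, and that of FAT1 under 4, each of which left out 1 library: either one labelled Kv1.5, RFP replicate 1 or RFP replicate 2. The log2 fold change of FAT1 was -1.10 to -0.79 over all its alternatives. PCDH7, not past the threshold for Kir2.1 against RFP, passed under RLE scaling, at -1.005. It also passed with no filter on low counts, at -0.98, and by DESeq2, at -1.01. The authors' deposited table for Kir2.1 lists 3 of the 10 genes among its 1139, CDH11, CDH3 and CDH4. The authors' deposited table for Kv1.5 lists 5 of the 10 among its 2178, CDH11, CDH4, CDH24, PCDH1 and PCDH7.

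Of the 104 other genes on the cadherin superfamily list, 43 could be tested. For Kir2.1 against RFP, 6 rose and 4 fell, which is 23.3% of those tested, with a median log2 fold change of 0.12 beside -0.0067 over all tested genes. Against RFP, the libraries labelled Kv1.5 gave 7 that rose and 6 that fell, which is 30.2%, with a median of -0.37 beside 0.019 over all. Against Kir2.1 they gave 4 that rose and 6 that fell, which is 23.3%, with a median of -0.41 beside 0.0051 over all. Over all tested genes the shares were 20.5%, 33.7% and 16.8% in the same comparisons. None of the 12 other classical cadherins could be tested. The clustered protocadherins, which neurons use as surface tags, gave 30 of the 43 tested genes, with 6 rises and 0 falls for Kir2.1 against RFP by edgeR, a share of 20.0%. At an unadjusted p under 0.05, 4 of them fell by edgeR, and by DESeq2 1 fell. The clustered genes gave 7 rises and 3 falls for the libraries labelled Kv1.5 against RFP, and 3 of each for those against Kir2.1.

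PCDHB2 was the clustered gene that set the groups apart most clearly. It had 1.55, 1.73 and 1.67 CPM in Kir2.1, 8.32 and 9.82 CPM in libraries labelled Kv1.5, and 0.382, 0.525 and 0.374 CPM in RFP, with no overlap between any groups. It rose by 1.94 on the log2 scale for Kir2.1 against RFP (SE 0.30, edgeR adjusted p = 0.000747) and by 4.40 for the libraries labelled Kv1.5 against RFP (SE 0.32, edgeR adjusted p = 2.04e-06). It also rose by 2.45 for the libraries labelled Kv1.5 against Kir2.1 (SE 0.29, edgeR adjusted p = 0.000383). PCDHB8, of the same cluster, went the other way. It averaged 1.29 ± 0.32 CPM in Kir2.1, 0.169 ± 0.0521 CPM in libraries labelled Kv1.5 and 1.39 ± 0.25 CPM in RFP, and fell by 3.02 on the log2 scale for the libraries labelled Kv1.5 against RFP (edgeR adjusted p = 0.000597). Genes of the alpha and gamma clusters share their constant exons (PCDHAC1, for example, shares 2866 bp, or 41.3% of its exon length, with its neighbours), so the calls of PCDHA13, PCDHAC1, PCDHAC2, PCDHGA2, PCDHGA6, PCDHGA10, PCDHGC3 and PCDHGC5 are uncertain.

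Outside the clusters, CELSR1, a planar polarity cadherin, was the gene with the most evident fall. It had 11.7, 23.9 and 20.9 CPM in Kir2.1, 9.01 and 10.1 CPM in libraries labelled Kv1.5, and 41.4, 62.0 and 55.0 CPM in RFP, so that every RFP library was above every other. It fell by 1.49 on the log2 scale for Kir2.1 against RFP (edgeR adjusted p = 0.00187) and by 2.46 for the libraries labelled Kv1.5 against RFP (edgeR adjusted p = 0.00015). DSC2, a desmosomal cadherin, averaged 2.84 ± 1.03 CPM in Kir2.1, against 10.3 ± 2.59 CPM in RFP, and fell by 1.85 on the log2 scale (edgeR adjusted p = 0.00377). It averaged 7.90 ± 3.98 CPM in libraries labelled Kv1.5, not past the threshold against RFP (edgeR adjusted p = 0.492). DSG2, the more abundant desmosomal partner, averaged 121 ± 33.2 CPM in Kir2.1, 173 ± 46.7 CPM in libraries labelled Kv1.5 and 190.0 ± 18.3 CPM in RFP, and did not pass in any comparison. PCDH18, a delta-2 protocadherin, had 48 counts over the Kir2.1 libraries, 3 over those labelled Kv1.5 and 181 over RFP. The ratio of the libraries labelled Kv1.5 to RFP was 40.5-fold lower by summed counts, with an exact 95% interval of 13.6 to 198, and at least 20.0-fold lower or 20.5-fold lower when replicate 2 or replicate 3 of the libraries labelled Kv1.5 was left out.

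**Figure D4:**
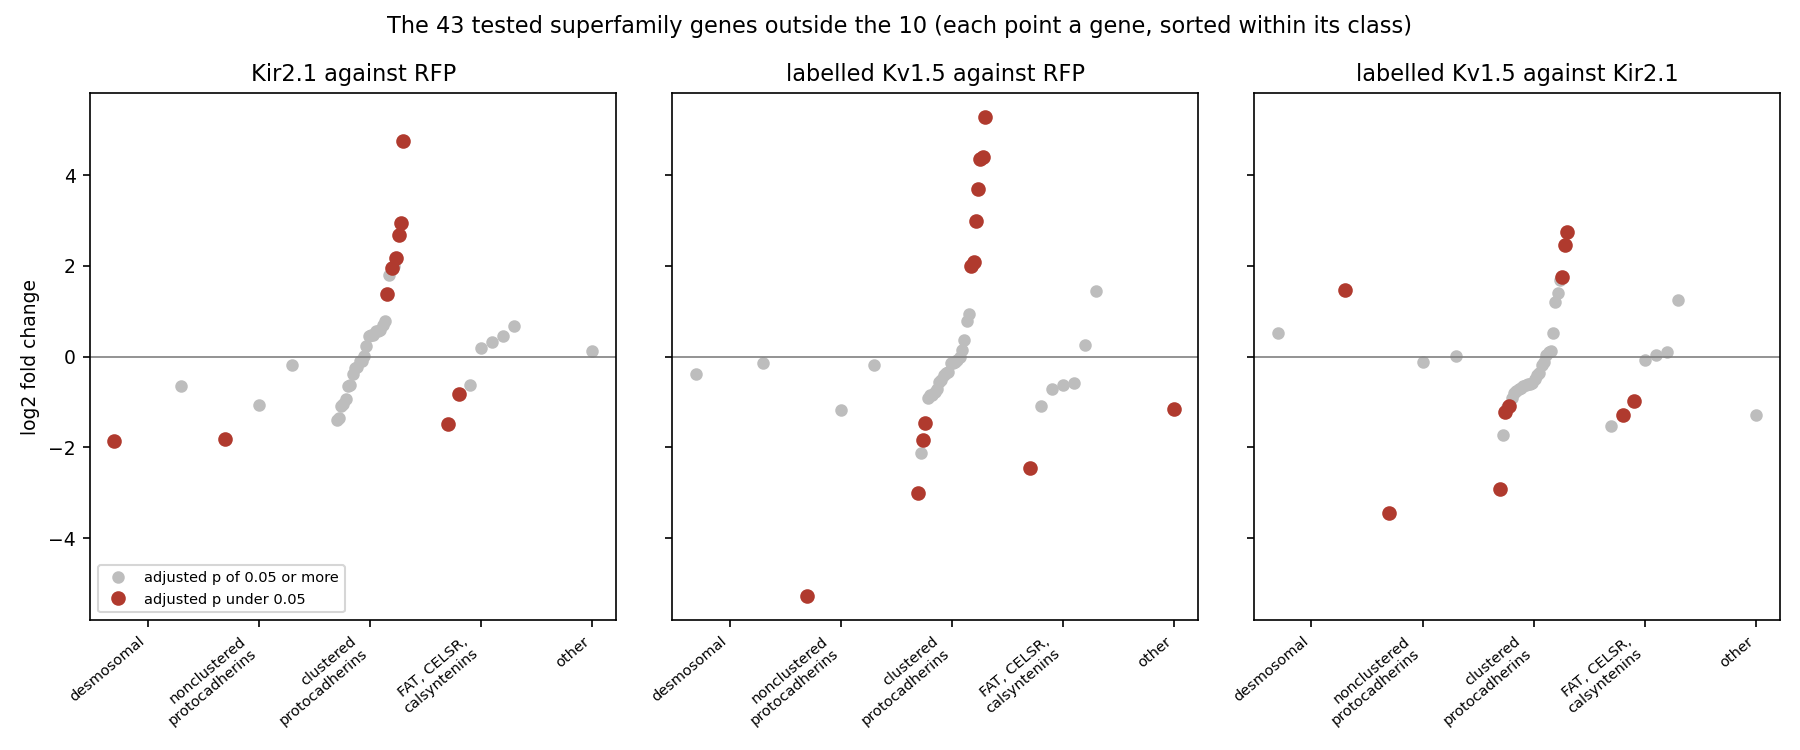
Fitted log2 fold changes of the tested superfamily genes outside the 10, by class, for the 3 comparisons, with genes past an adjusted p of 0.05 marked. Most tested genes are clustered protocadherins, which lie on both sides of 0, with PCDHB2 at 4.40 and PCDHB8 at -3.02 for the libraries labelled Kv1.5 against RFP. The highest point in both comparisons with RFP is PCDHAC1, which had 1 count over the RFP libraries, and the lowest point for the libraries labelled Kv1.5 is PCDH18.

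The proteins that work with cadherins were described from 5 lists, of which 84 of 102 genes were tested. For Kir2.1 against RFP, 15 rose and 11 fell (31.0%, median log2 fold change -0.03). For the libraries labelled Kv1.5 against RFP, 15 rose and 18 fell (39.3%, median -0.09), and for those against Kir2.1, 9 rose and 8 fell (20.2%, median -0.04). The shares and medians over all tested genes are those given above.

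Among catenins and the proteins that link them to actin (22 of 26 tested), 3 rose and 3 fell for Kir2.1 against RFP, with a median of -0.05, and 3 rose and 8 fell for the libraries labelled Kv1.5 against RFP, with a median of -0.35. Against Kir2.1, the libraries labelled Kv1.5 gave 2 that rose and 3 that fell, with a median of -0.36. The core of the complex did not pass the threshold in any comparison. CTNNB1 (beta-catenin) averaged 518 ± 76.1 CPM in Kir2.1, 489 ± 51.7 CPM in libraries labelled Kv1.5 and 621 ± 102 CPM in RFP. CTNNA1 (alpha-catenin) averaged 825 ± 38.9 CPM in Kir2.1, 766 ± 227 CPM in libraries labelled Kv1.5 and 877 ± 36.8 CPM in RFP. CTNND1 (p120-catenin, which keeps cadherins at the surface) averaged 9.83 ± 0.30 CPM in Kir2.1, 6.92 ± 1.90 CPM in libraries labelled Kv1.5 and 9.86 ± 2.55 CPM in RFP.

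JUP (plakoglobin, the close relative of beta-catenin in junctions and desmosomes) did differ. It had 66.3, 78.2 and 61.8 CPM in Kir2.1, 55.4 and 27.1 CPM in libraries labelled Kv1.5, and 11.3, 17.9 and 25.0 CPM in RFP, so that every other library was above all RFP libraries. JUP rose by 1.93 on the log2 scale for Kir2.1 against RFP (SE 0.31, edgeR adjusted p = 0.00105) and by 1.19 for the libraries labelled Kv1.5 against RFP (SE 0.33, edgeR adjusted p = 0.0159). The second call was lost without replicate 2 of the libraries labelled Kv1.5, at 0.59, or without RFP replicate 2, at 1.18. AFDN (afadin, a nectin-bound actin linker) averaged 126 ± 36.5 CPM in Kir2.1, 122 ± 3.87 CPM in libraries labelled Kv1.5 and 62.7 ± 3.80 CPM in RFP. It rose by 1.01 for Kir2.1 (edgeR adjusted p = 0.00601) and by 0.96 for the libraries labelled Kv1.5 (edgeR adjusted p = 0.00832). NECTIN2, one of the nectins that afadin binds, rose by 0.94 for Kir2.1 (edgeR adjusted p = 0.00166) and by 0.62 for the libraries labelled Kv1.5 (edgeR adjusted p = 0.0179). NECTIN1, another nectin, went the other way in the libraries labelled Kv1.5. It fell by 1.13 on the log2 scale for these against RFP and by 1.68 for these against Kir2.1. The first of these calls was lost without their replicate 2, at -0.99, and NECTIN1 did not pass for Kir2.1 against RFP. PKP2, a desmosomal plakophilin, averaged 43.7 ± 11.2 CPM in Kir2.1, 41.6 ± 2.70 CPM in libraries labelled Kv1.5 and 79.8 ± 9.28 CPM in RFP, and fell by 0.87 for Kir2.1 (edgeR adjusted p = 0.0119) and by 0.94 for the libraries labelled Kv1.5 (edgeR adjusted p = 0.0101).

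**Figure D5:**
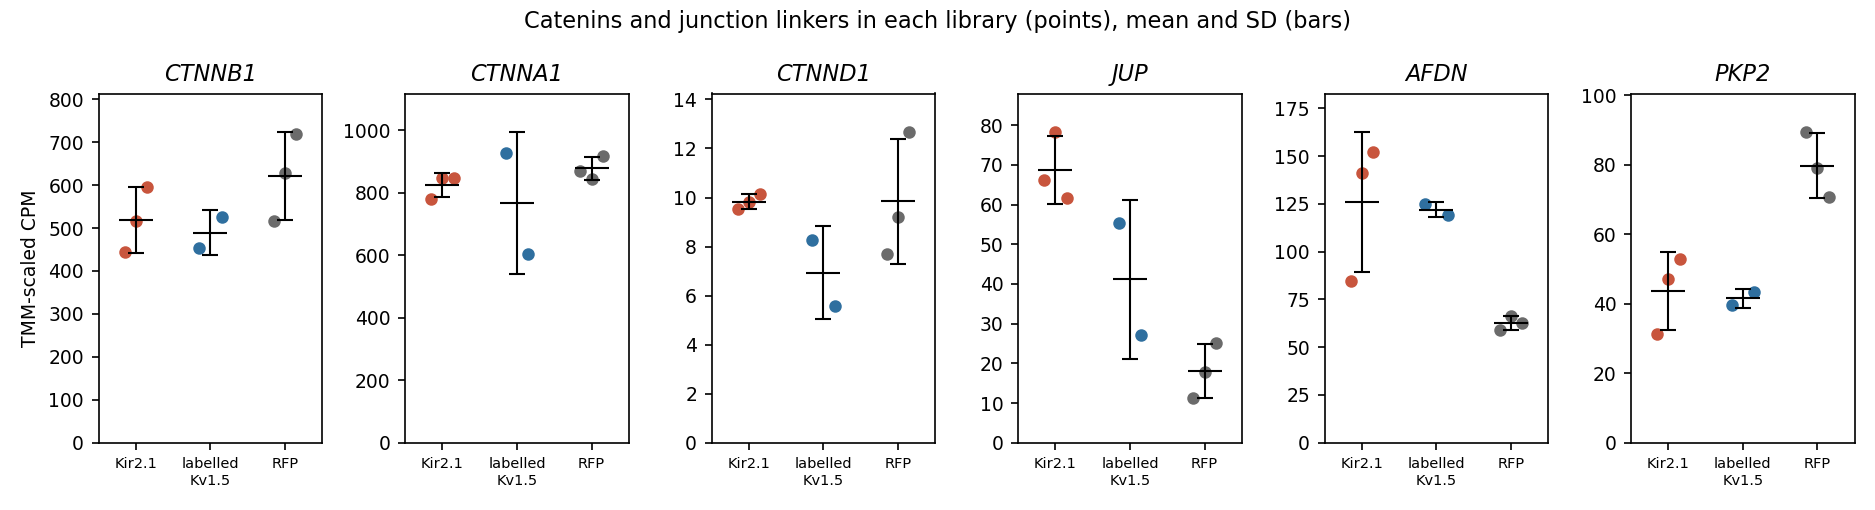
Levels of 3 catenins, plakoglobin (JUP), afadin (AFDN) and PKP2 in every library (points), with the mean and SD of each group (bars), in scaled CPM on linear axes from 0. CTNNB1 and CTNNA1 overlap between groups, JUP lies at 27.1 CPM or more in Kir2.1 and the libraries labelled Kv1.5 and at 25.0 CPM or less in RFP, and PKP2 is highest in RFP.

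Of the transcription factors known to act on cadherin genes, 9 of 17 could be tested. For Kir2.1 against RFP 1 rose and 3 fell (median -0.34), for the libraries labelled Kv1.5 against RFP 2 rose and 2 fell (median -0.0036), and for those against Kir2.1 1 rose (KLF8) and 0 fell by edgeR (median 0.49), with 0 falls also by DESeq2 and at an unadjusted p under 0.05. ZEB1, a repressor of CDH1, averaged 84.3 ± 25.4 CPM in Kir2.1, 96.3 ± 7.65 CPM in libraries labelled Kv1.5 and 78.3 ± 11.2 CPM in RFP and did not pass in any comparison. SNAI1 and ZEB2, which also repress CDH1, fell for Kir2.1 against RFP. SNAI1 had 0.420, 0.378 and 1.17 CPM in Kir2.1, 0.847 and 3.53 CPM in libraries labelled Kv1.5, and 5.16, 2.05 and 1.93 CPM in RFP, with a log2 fold change of -2.20 for Kir2.1 (edgeR adjusted p = 0.0268) and of -0.48 for the libraries labelled Kv1.5 (edgeR adjusted p = 0.602). The SNAI1 call was lost without Kir2.1 replicate 1, at -1.97, without Kir2.1 replicate 2, at -1.92, and without RFP replicate 1, at -1.59, and without Kir2.1 replicate 3 the value was -2.92. ZEB2 averaged 14.2 ± 4.46 CPM in Kir2.1, 22.6 ± 0.62 CPM in libraries labelled Kv1.5 and 24.1 ± 1.58 CPM in RFP, with a log2 fold change of -0.76 for Kir2.1 (edgeR adjusted p = 0.0403) and of -0.09 for the libraries labelled Kv1.5 (edgeR adjusted p = 0.825). The ZEB2 call was lost under 5 of 12 alternatives, at -0.85 without Kir2.1 replicate 2, at -0.77, -0.81 and -0.72 without RFP replicates 1, 2 and 3 in that order, and at -0.53 without Kir2.1 replicate 1. TWIST1 had 0 counts in every library. TCF4, a basic helix-loop-helix factor that can repress CDH1, had 5, 14 and 18 counts in Kir2.1, 33 and 13 counts in libraries labelled Kv1.5, and 1, 0 and 0 counts in RFP. It rose in both groups against RFP (edgeR adjusted p = 0.00363 for Kir2.1 and 0.000879 for the libraries labelled Kv1.5), with count ratios of 40.9 for Kir2.1 (exact 95% interval 6.90 to 1659) and 68.6 for the libraries labelled Kv1.5 (11.7 to 2768). Without RFP replicate 1, which holds the 1 count, these are lower bounds of 8.65-fold for Kir2.1 and 14.5-fold for the libraries labelled Kv1.5. PRRX1, a mesenchymal homeobox factor, averaged 0.833 ± 0.34 CPM in Kir2.1, 1.05 ± 0.11 CPM in libraries labelled Kv1.5 and 4.78 ± 0.70 CPM in RFP. It fell by 2.52 on the log2 scale for Kir2.1 (edgeR adjusted p = 0.000386) and by 2.18 for the libraries labelled Kv1.5 (edgeR adjusted p = 0.0015). KLF8, a repressor of CDH1, had 0.937, 1.62 and 1.95 CPM in Kir2.1, 4.54 and 4.11 CPM in libraries labelled Kv1.5, and 0.669, 0.998 and 1.21 CPM in RFP. Its rise of 2.18 for the libraries labelled Kv1.5 against RFP passed (edgeR adjusted p = 0.00118), and its log2 fold change of 0.66 for Kir2.1 against RFP did not (edgeR adjusted p = 0.214).

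Of the enzymes that process or shed cadherins, 18 of 19 were tested. For Kir2.1 against RFP 5 rose and 1 fell (median 0.21), for the libraries labelled Kv1.5 against RFP 6 rose and 1 fell (median 0.27), and for those against Kir2.1 2 rose and 0 fell by edgeR (median 0.10), with 0 falls by DESeq2 and 2 at an unadjusted p under 0.05. MMP9, a secreted gelatinase, had 7.11, 8.38 and 3.71 CPM in Kir2.1, 10.3 and 4.16 CPM in libraries labelled Kv1.5, and 0.119, 0.105 and 0.0576 CPM in RFP. It rose by 6.02 on the log2 scale for Kir2.1 (SE 0.54, edgeR adjusted p = 1.3e-05) and by 6.19 for the libraries labelled Kv1.5 (SE 0.56, edgeR adjusted p = 1.06e-05), with no overlap. The second was 5.40 without replicate 2 of the libraries labelled Kv1.5. PCSK6, a proprotein convertase, the type of enzyme that trims cadherin precursors, had 0.0323, 0.0270 and 0.0558 CPM in Kir2.1, 0.0257 and 0.184 CPM in libraries labelled Kv1.5, and 2.01, 3.26 and 10.1 CPM in RFP. It fell by 6.93 for Kir2.1 (edgeR adjusted p = 0.000154) and by 5.57 for the libraries labelled Kv1.5 (edgeR adjusted p = 0.000591). With RFP replicate 3 left out, the values became -5.98 for Kir2.1 and -4.62 for the libraries labelled Kv1.5, which without their replicate 2 stood at -4.76 and without their replicate 3 at -7.46. ADAM10, the main sheddase of N-cadherin, averaged 140.1 ± 33.9 CPM in Kir2.1, 99.3 ± 3.10 CPM in libraries labelled Kv1.5 and 120 ± 30.2 CPM in RFP and did not pass in any comparison. ADAM17, a related sheddase, rose by 1.34 for the libraries labelled Kv1.5 against RFP (edgeR adjusted p = 0.00138), and it shares 1323 bp of exon with IAH1 on the opposite strand.

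Of the other proteins that act at cadherins, a receptor and a kinase are described singly. PDGFRB, a receptor reported to associate with cadherin-11, averaged 2.89 ± 0.79 CPM in Kir2.1, 0.401 ± 0.158 CPM in libraries labelled Kv1.5 and 2.74 ± 1.10 CPM in RFP. It fell by 2.76 on the log2 scale for the libraries labelled Kv1.5 against RFP (edgeR adjusted p = 0.00118) and had a log2 fold change of -2.83 against Kir2.1 (edgeR adjusted p = 0.00288). SRC, a kinase acting at junctions, averaged 65.2 ± 10.0 CPM in libraries labelled Kv1.5 and 26.6 ± 1.05 CPM in RFP, a rise of 1.29 (edgeR adjusted p = 0.000277).

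Beta-catenin and TCF target genes (14 of 17 tested) went both ways. For Kir2.1 against RFP 4 rose and 3 fell (median 0.06), for the libraries labelled Kv1.5 against RFP 2 rose and 5 fell (median -0.78), and for those against Kir2.1 2 rose and 4 fell (median -0.51). These are 50.0%, 50.0% and 42.9% of those tested, beside 20.5%, 33.7% and 16.8% over all tested genes. The largest called changes for Kir2.1 against RFP were NKD1 at -4.985, RNF43 at 2.06 and LEF1 at -1.255. NKD1 also fell by 2.90 for the libraries labelled Kv1.5 against RFP. It had 1 count over Kir2.1, 4 over libraries labelled Kv1.5 and 47 over RFP. MYC rose by 2.03 for the libraries labelled Kv1.5 against RFP and by 2.19 for those against Kir2.1. DKK1, a secreted Wnt inhibitor, averaged 832 ± 488 CPM in libraries labelled Kv1.5 and 214 ± 38.1 CPM in RFP, a rise of 1.96 (edgeR adjusted p = 0.000626) that was 1.19 without replicate 3 of the libraries labelled Kv1.5. AXIN2, a feedback inhibitor of the Wnt pathway, averaged 1.66 ± 0.0436 CPM in libraries labelled Kv1.5 and 4.14 ± 1.16 CPM in RFP, a log2 fold change of -1.32 (edgeR adjusted p = 0.00957). BMP4, a growth factor, averaged 21.0 ± 1.48 CPM in libraries labelled Kv1.5 and 102 ± 40.4 CPM in RFP, a log2 fold change of -2.28 (edgeR adjusted p = 0.000247). BMP4 averaged 177 ± 37.6 CPM in Kir2.1 and rose against RFP, with a log2 fold change of 0.80 (edgeR adjusted p = 0.0478), a call lost under 6 of 12 alternatives: RLE scaling, the replicate block, and without Kir2.1 replicate 1 or 2 or RFP replicate 1 or 2, over which it was 0.60 to 0.85. AXIN2 averaged 5.10 ± 0.84 CPM in Kir2.1 and did not pass against RFP (edgeR adjusted p = 0.482).

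Over the 8 libraries, the 6 genes whose log2 CPM followed that of CDH11 most closely among 10695 genes (mean of 5 CPM or more) were MXRA8, PJA1, GLUL, AFAP1-AS1, PTPN22 and ANOS1, with Pearson r of 0.996, 0.996, 0.995, 0.994, 0.994 and 0.993 in that order. The 8 points fall into the RFP libraries and all the others, so r says little more than that these genes show the same step, and only 2 to 4 of the 6 were again among the 6 when 1 library was left out. MXRA8, a surface protein with immunoglobulin domains, had 34.1, 33.4 and 40.1 CPM in Kir2.1, 44.3 and 23.8 CPM in libraries labelled Kv1.5, and 0.0716, 0.0525 and 0.0288 CPM in RFP, near absence beside clear presence, though the ratio of summed counts was smaller than for CDH11, at 687 for Kir2.1 (exact 95% interval 315 to 1874) and 653 for the libraries labelled Kv1.5 (300 to 1782). AFAP1-AS1, a long noncoding RNA, had 73.0, 91.6 and 81.3 CPM in Kir2.1, 41.4 and 51.6 CPM in libraries labelled Kv1.5, and 0.0716, 0.0263 and 0.0288 CPM in RFP. GLUL, glutamine synthetase, averaged 141 ± 6.36 CPM in Kir2.1, 178 ± 69.9 CPM in libraries labelled Kv1.5 and 3.38 ± 0.33 CPM in RFP. PJA1, a ubiquitin ligase, PTPN22, a phosphatase, and ANOS1, a secreted matrix protein, were detected in all groups and were higher by 1.53, 2.11 and 2.55 on the log2 scale in Kir2.1 than in RFP. Of the other cadherins at 5 CPM or more, CDH4 had r of -0.92 with CDH11, CDH24 -0.63, PCDH1 0.75, PCDH7 -0.69, FAT1 -0.50 and FAT4 -0.20.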

How the data were processed

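Poly(A) RNA of MDA-MB-231 lines was sequenced from a stranded kit, per the labels' protocols. The authors deposited raw counts per gene for 8 libraries, and the submitters' processing notes name STAR, Trimmomatic, FastQC, edgeR and the build GRCh38. Replicate 1 of Kv1.5 was not analysed here. No version, counting tool or strand setting is stated in the sources used here. In the authors' deposited tables of comparisons with RFP, log2 fold changes were read, and the deposited p-values and scores were not used as results.

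Symbols were found for 60445 of 60715 IDs and positions (GENCODE 29, GRCh38) for 58453. In R 4.3.3, edgeR 4.0.16 fitted all 8 libraries with group as the term: filterByExpr left 16687 genes, TMM scaled the libraries, and the robust quasi-likelihood F-test (5 residual degrees of freedom) was adjusted by Benjamini-Hochberg over all tested genes, with 0.05 as the threshold. Standard errors come from the F statistic. Levels are CPM on scaled libraries, as mean ± SD. A group of 0 counts is taken at a floor of 3 counts over the group. A share of CPM per kb uses the summed exon length. The fit was tested on simulated data.

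The 10 genes and all lists were chosen with earlier results of these data known. Named genes are the 10, CDH1, the called superfamily genes with a group mean of at least 1 CPM and the 6 largest changes per comparison, the 3 largest called changes per partner list and comparison, 4 catenins, the 6 genes most like CDH11, its 3 tested neighbours on each side and the channel genes. Counts for one of the partner lists are not reported here. Not every gene so named is reported, and PKP2, NECTIN2, DSG2, ADAM10, ZEB1, TWIST1, AXIN2, ZEB2, CES4A and CDH10 were picked after their values were seen. Alternatives were RLE scaling, no filter on low counts, DESeq2 1.42.0, a replicate block and each library left out in turn.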

Additional observations from a re-analysis of the deposited data

How the results depend on the processing

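Under RLE scaling, no filter, DESeq2 and the replicate block, no direction reversed. Counts of called genes over all tested, superfamily and partner genes stayed within 1.5 times their values under these settings. Those over all tested genes were 3418 for Kir2.1 against RFP, 5624 for the libraries labelled Kv1.5 against RFP and 2801 for those against Kir2.1. With a single library left out, these counts ran from 1975 to 4519, from 3912 to 5536 and from 1384 to 3861. The lowest came without Kir2.1 replicate 2 for the first and the last of them. Superfamily genes outside the 10 counted 6 to 14 for Kir2.1 against RFP, 11 to 18 for the libraries labelled Kv1.5 against RFP and 3 to 10 for those against Kir2.1. Partner genes counted 17 to 30, 25 to 34 and 13 to 24 in the same comparisons, and 2 to 4 of the 6 genes most like CDH11 were kept. Leaving a library out also leaves fewer samples, and the causes of these ranges were not tested. Of the 10 genes, 4 to 6 were past the threshold for Kir2.1 against RFP over all alternatives, 6 to 8 for the libraries labelled Kv1.5 against RFP and 3 to 6 for those against Kir2.1. In the last comparison the 6 came with no filter on low counts, beside 3 in the main fit. Whether the replicate numbers pair the samples was not settled. Deviations of same-numbered libraries correlated at 0.181, -0.0938 and 0.157 between Kir2.1 and RFP, and those of libraries with different numbers at -0.218 to 0.085. The fit with the replicate number as a block called 3707, 5565 and 2729 genes, 9, 12 and 8 superfamily genes and 25, 32 and 18 partner genes. Depth limits CDH18, CDH3, CDH2, NKD1 outside RFP and the RFP side of CDH11 and TCF4, which rest on few counts. With 3 Kir2.1, 2 labelled Kv1.5 and 3 RFP libraries, the spread within the libraries labelled Kv1.5 is the least well known.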
